A study of Mus musculus with 18 samples.

Results

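The expression of 10 genes of the Eph, ephrin, Slit and Robo families was followed across 18 RNA-seq libraries of mouse peritoneal macrophages. They are 10 of the 21831 genes in the expression table. The members are the Eph receptor genes Epha2, Ephb2, Ephb3 and Ephb4, the ephrin genes Efna1, Efnb1 and Efnb2, the Slit genes Slit2 and Slit3, and the Slit receptor gene Robo1. They were taken by symbol. Epha2, Ephb3 and Slit2 were chosen by measured values, the differences in their levels between these same groups, and the other 7 are their relatives. Values of these 3 genes are therefore given as a description, with no test.

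The cells came from 6-week-old C57BL/6 mice. One genotype (dMye) lacked the nuclear receptor PXR in myeloid cells, and the genotype it was set against (FF) carried floxed PXR alleles. The labels do not name the Cre driver. Macrophages drawn into the peritoneal cavity with 1 mL of 3% thioglycollate over 3 days were plated, attached for 4 h, and then received 20 µM of the PXR ligand PCN or the solvent DMSO for 12 h. There were 6 dMye_PCN, 6 dMye_DMSO, 3 FF_PCN and 3 FF_DMSO libraries, and the labels do not say whether they came from separate animals or cultures, so p-values measure the spread between libraries, which may be technical.

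Eph receptors are receptor tyrosine kinases that bind ephrins on a neighbouring cell. Ephrins of the A class are held in the membrane by a lipid anchor, those of the B class span it, and signals pass into both the receptor-bearing and the ephrin-bearing cell. Slits are secreted glycoproteins that bind Robo receptors. Both systems are known to repel growing axons and to steer the adhesion and migration of vascular, epithelial and immune cells.

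Totals ran from 21993687 to 30228032 expected counts per library, so a count of 3, used as the floor for a gene at 0, stood for 0.0992 to 0.136 CPM (a count divided by the library's total and put on the usual counts-per-1e6 scale; floors cover counting error only). Nr1i2, which encodes PXR, had 5 counts over the 12 dMye libraries and 3 over the 6 FF libraries, so its loss was not detectable at this depth. Sex followed genotype in all 18 libraries. The summed level of 4 Y-linked genes lay between 0.463 and 1.49 CPM in dMye_PCN and between 0.63 and 0.993 CPM in dMye_DMSO, against 123 to 137 CPM in FF_PCN and 113 to 128 CPM in FF_DMSO. In each comparison of dMye with FF, genotype and sex cannot be told apart.

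Of the 10 members, 9 passed the filter on low counts and were tested. Robo1 had at most 10 counts in a library and was not tested. Ephb3 and Slit2 passed largely through the dMye libraries, since each was at 0 counts in a whole FF group, so a count over tested members is a description only.

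The bases before the transcription start of 4 members are shown so that they can be compared at the sequence level. They are Epha2, Ephb3 and Slit2, on which the choice rested, and Efnb2, whose difference between the genotypes had the smallest p among the other members. Each run holds the 250 bases upstream of the RefSeq start on GRCm38.p6, 5′ to 3′ on the gene's strand. Capitals mark matches, on either strand, to TGACGTCA (the CRE motif), AGGTCA (a nuclear receptor half-site), AGTTCA (a variant half-site), GGGCGG (the SP1 motif) and TATAAA (the TATA motif). The AP-1 motif, TGANTCA, and the E-box CACGTG were also searched.
Epha2 (chr4:141300971-141301220, plus strand): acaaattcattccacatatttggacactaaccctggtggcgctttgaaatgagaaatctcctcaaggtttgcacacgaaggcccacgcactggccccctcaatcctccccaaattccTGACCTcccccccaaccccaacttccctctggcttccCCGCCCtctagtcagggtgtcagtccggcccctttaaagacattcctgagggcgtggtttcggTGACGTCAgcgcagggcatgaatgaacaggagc
Ephb3 (chr16:21204545-21204794, plus strand): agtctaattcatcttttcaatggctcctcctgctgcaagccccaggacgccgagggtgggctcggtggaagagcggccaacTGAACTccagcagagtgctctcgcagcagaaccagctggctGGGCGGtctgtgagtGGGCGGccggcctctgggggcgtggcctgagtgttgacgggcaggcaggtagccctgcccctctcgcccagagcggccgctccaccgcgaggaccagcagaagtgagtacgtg
Slit2 (chr5:47982905-47983154, plus strand): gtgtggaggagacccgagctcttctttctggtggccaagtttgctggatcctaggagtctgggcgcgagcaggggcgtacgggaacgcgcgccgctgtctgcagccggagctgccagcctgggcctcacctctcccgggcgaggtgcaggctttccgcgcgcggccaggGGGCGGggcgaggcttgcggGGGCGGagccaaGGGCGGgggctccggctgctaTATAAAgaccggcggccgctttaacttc
Efnb2 (chr8:8661243-8661492, minus strand): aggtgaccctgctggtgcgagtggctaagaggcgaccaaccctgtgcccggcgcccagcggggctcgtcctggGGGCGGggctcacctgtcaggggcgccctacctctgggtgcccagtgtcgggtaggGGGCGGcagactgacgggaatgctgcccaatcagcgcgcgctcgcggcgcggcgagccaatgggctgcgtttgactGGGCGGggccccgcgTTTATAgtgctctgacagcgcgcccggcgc

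The Epha2 run held 1 CRE match beginning 33 bases before the start, a sequence found in 1.55% of the 32851 such windows of all genes, and it was the single member with one. It also held 1 AGGTCA half-site (14% of all windows) and 1 SP1 match. The Ephb3 run held 1 AGTTCA half-site (11.8% of all windows) and 2 SP1 matches. The runs of Slit2 and Efnb2 each held 3 SP1 matches and 1 TATA match, which began 28 and 30 bases before the start. SP1 matches stood in a window of 7 of the 10 members, against 32.7% of all windows, and the members' windows had between 55.6% and 78.8% G and C, against a median of 52.4% over all windows. TATA matches stood in 2 of the 10, against 12.4% of all windows. AP-1 and E-box matches stood in 0 of the 10, against 6.75% and 6.02%. The motifs did not overlap one another in the 4 runs shown. No binding was measured.

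**Figure D1:**
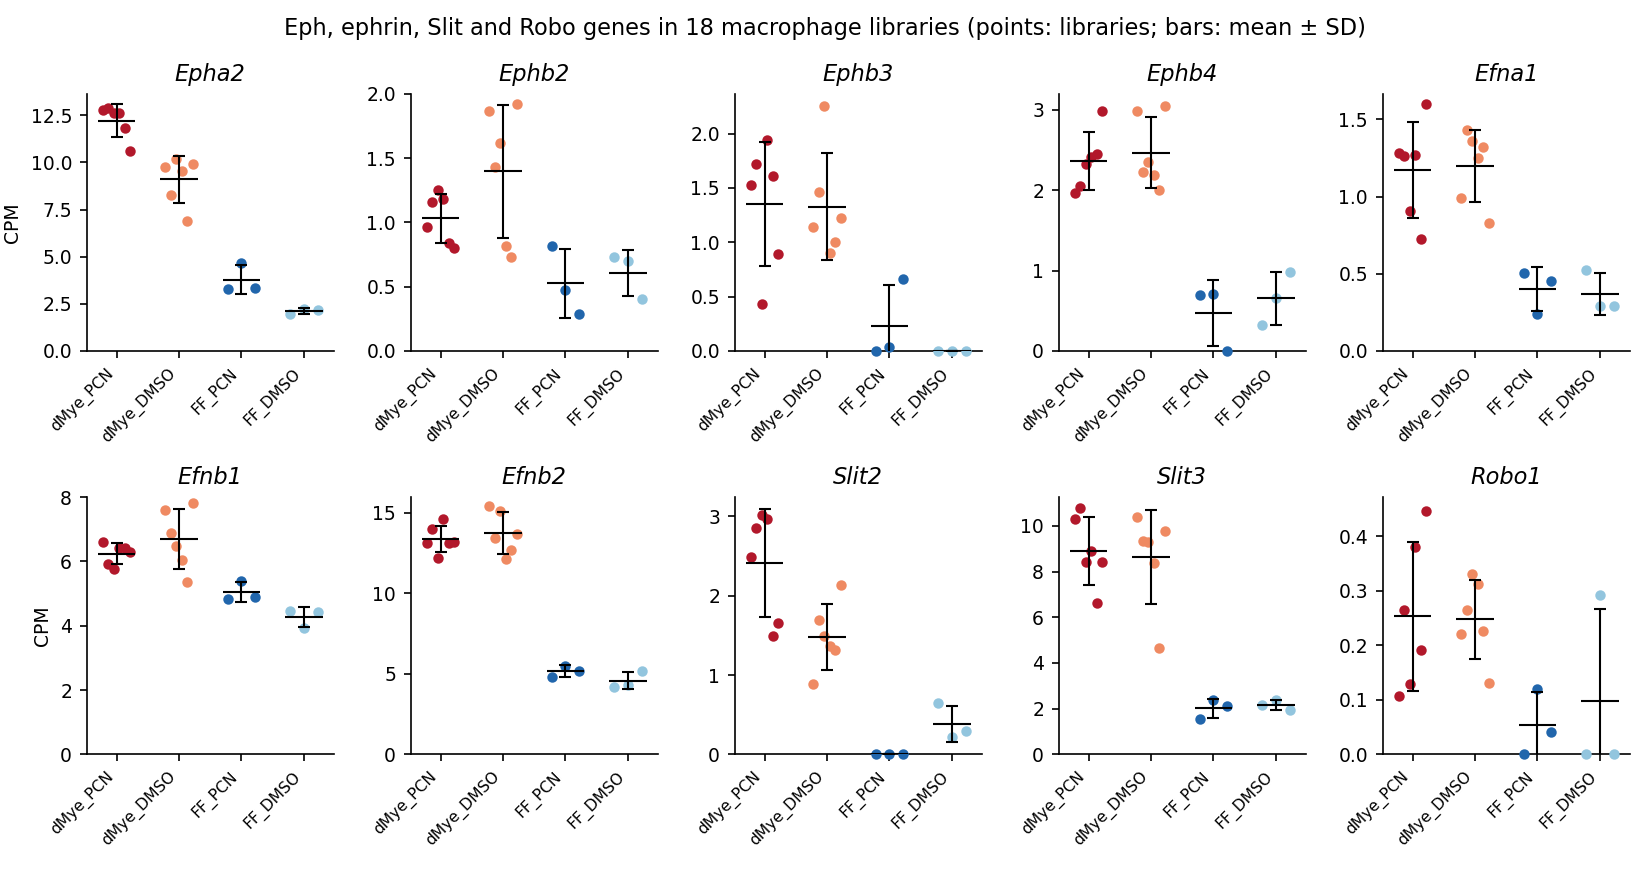
Level of each member in CPM (vertical axis, from 0) in every library of the 4 groups (horizontal axis), with points for libraries and bars for the mean ± SD (ended at 0 where the SD passes it). Epha2, Ephb4, Efna1, Efnb1, Efnb2, Slit2 and Slit3 lie higher in every dMye library than in any FF library given the same agent. Among all tested genes, 19.1% did so under PCN and 17.3% under DMSO. Epha2 and Slit2 were chosen by such differences, and Slit2 is at 0 in all 3 FF_PCN libraries.

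Epha2 (GRCm38 chromosome 4, 141301240 to 141329384, plus strand), a receptor for A-class ephrins that is common in epithelia and endothelium, was the member whose level was higher with PCN in both genotypes. Its lowest, median and highest values were 10.6, 12.6 and 12.9 CPM in dMye_PCN and 6.91, 9.65 and 10.2 CPM in dMye_DMSO. It stood at 3.3, 4.68 and 3.35 CPM in FF_PCN and at 1.94, 2.24 and 2.18 CPM in FF_DMSO. All PCN libraries lay above all DMSO libraries of the same genotype, and all dMye libraries lay above all FF libraries. The log2 fold change for PCN over DMSO was 0.42 (SE 0.10) in dMye and 0.85 (SE 0.17) in FF, or 1.34-fold and 1.81-fold, and the FF value was 0.66 without FF_PCN 2. The PCN effect was 0.43 lower in dMye than in FF on the log2 scale (difference -0.43, SE 0.19). Between genotypes, dMye over FF, the log2 fold change was 1.64 (SE 0.13) under PCN and 2.07 (SE 0.14) under DMSO.

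Ephb3 (chromosome 16, 21204755 to 21223305, plus strand), a receptor for B-class ephrins known for sorting cells in the gut epithelium, was detected in every dMye library and in 2 of 6 FF libraries. Its lowest, median and highest values were 0.431, 1.57 and 1.94 CPM in dMye_PCN and 0.898, 1.18 and 2.25 CPM in dMye_DMSO. In FF_PCN the 3 libraries had 0, 1 and 16 counts, and in FF_DMSO all 3 had 0 counts. The dMye libraries of both agents overlapped widely (log2 fold change for PCN 0.03, SE 0.44). Under DMSO, Ephb3 was at least 36.2-fold higher in dMye than in FF, taking 3 counts over the FF group as the floor. FF_PCN held 17 counts against 0 in FF_DMSO, at least 5.99-fold higher by the same floor, but 16 of them came from FF_PCN 3, and the other 2 libraries had no more than 1. Under PCN the FF library with 16 counts, at 0.661 CPM, lay above the lowest dMye library.

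Ephb4 (chromosome 5, 137350109 to 137378669, plus strand), the receptor of ephrin B2 in the growth of veins, averaged 2.36 ± 0.363 CPM in dMye_PCN and 2.47 ± 0.441 CPM in dMye_DMSO (SD, n = 6 each). It stood at 0.7, 0.714 and 0 CPM in FF_PCN and at 0.323, 0.66 and 0.982 CPM in FF_DMSO. Every dMye library, the lowest at 1.96 CPM, lay above every FF library. Ephb4 was higher in dMye under PCN (log2 2.25, SE 0.44, edgeR adjusted p = 0.00055) and under DMSO (log2 1.86, SE 0.41, adjusted p = 0.0022), and it did not pass the test for PCN in dMye (-0.06, adjusted p = 0.95) or in FF (-0.45, adjusted p = 0.66). Without FF_PCN 3, the library at 0, the log2 value for PCN in FF was 0.11, and in limma-voom it was -1.43. For dMye over FF under PCN limma-voom gave 3.30, and the value without FF_PCN 3 was 1.68.

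Ephb2 (chromosome 4, 136647539 to 136835988, minus strand), another receptor for B-class ephrins, was low in every group. It averaged 1.03 ± 0.19 CPM in dMye_PCN, 1.4 ± 0.516 CPM in dMye_DMSO, 0.527 ± 0.267 CPM in FF_PCN and 0.608 ± 0.181 CPM in FF_DMSO. The dMye_DMSO libraries, the lowest and the highest at 0.727 and 1.92 CPM, lay above the FF_DMSO libraries by a gap too narrow to show at 3 digits, since the highest FF_DMSO library was also at 0.727 CPM. The difference under DMSO passed the test (log2 1.17, SE 0.36, edgeR adjusted p = 0.023) but not without FF_DMSO 3 (0.93, adjusted p = 0.14). Under PCN the libraries overlapped (0.91, SE 0.37, adjusted p = 0.074), and without FF_PCN 1 the difference passed (1.37, adjusted p = 0.031).

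Of the ligands, Efnb2 (chromosome 8, 8617434 to 8661242, minus strand), the B-class ephrin known from arteries, was higher in dMye under both agents. It had lowest, median and highest values of 12.2, 13.2 and 14.6 CPM in dMye_PCN and 12.1, 13.5 and 15.4 CPM in dMye_DMSO. It stood at 4.78, 5.51 and 5.2 CPM in FF_PCN and at 4.2, 4.33 and 5.16 CPM in FF_DMSO. The dMye libraries lay above the FF libraries under both agents, 2.5-fold under PCN (log2 1.32, SE 0.10, edgeR adjusted p = 1.4e-09) and 2.95-fold under DMSO (log2 1.56, SE 0.10, adjusted p = 1.2e-10). PCN gave -0.04 in dMye (95% interval -0.19 to 0.11, adjusted p = 0.85) and 0.20 in FF (95% interval -0.04 to 0.44, adjusted p = 0.32).

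Efnb1 (X chromosome, 99136130 to 99148991, plus strand), another B-class ephrin, had the smallest log2 difference between the genotypes among the 9 tested members. Its lowest, median and highest values were 5.78, 6.35 and 6.62 CPM in dMye_PCN and 5.37, 6.69 and 7.81 CPM in dMye_DMSO. It stood at 4.82, 5.39 and 4.91 CPM in FF_PCN and at 4.45, 3.92 and 4.44 CPM in FF_DMSO. The dMye libraries lay above the FF libraries under both agents, and the FF_PCN libraries lay above the FF_DMSO libraries. The difference between genotypes passed the test under DMSO (log2 0.62, SE 0.12, edgeR adjusted p = 0.00032) and not under PCN (0.26, SE 0.11, adjusted p = 0.098; 0.31, adjusted p = 0.047 with upper-quartile scaling). The PCN effect in FF did not pass (0.26, adjusted p = 0.21), nor did the difference between the PCN effects, dMye minus FF (-0.37, SE 0.16, unadjusted p = 0.032 and adjusted p = 0.33 by edgeR). The gene is X-linked and the genotypes differ in sex.

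Efna1 (chromosome 3, 89271733 to 89281142, minus strand), an A-class ephrin that binds EphA2, averaged 1.17 ± 0.311 CPM in dMye_PCN and 1.2 ± 0.234 CPM in dMye_DMSO. It stood at 0.505, 0.238 and 0.454 CPM in FF_PCN and at 0.525, 0.293 and 0.291 CPM in FF_DMSO. No FF library reached the lowest dMye library, at 0.726 CPM. Efna1 was higher in dMye under PCN (log2 1.49, SE 0.35, edgeR adjusted p = 0.0027) and under DMSO (log2 1.67, SE 0.35, adjusted p = 0.0013). Its log2 values for PCN were -0.04 in dMye and 0.14 in FF (adjusted p = 0.96 and 0.88).

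Slit2 (chromosome 5, 47983138 to 48307733, plus strand), a secreted ligand of Robo1 and Robo2, lay in opposite directions with PCN in the 2 genotypes. Its lowest, median and highest values were 1.49, 2.67 and 3.02 CPM in dMye_PCN and 0.882, 1.43 and 2.14 CPM in dMye_DMSO. It had 0 counts in all 3 FF_PCN libraries, and 16, 6 and 8 counts in the FF_DMSO libraries. In dMye the libraries of both agents overlapped, with 4 of 6 PCN libraries above the highest DMSO library (log2 0.70, SE 0.25). In FF all 3 PCN libraries were below all 3 DMSO libraries, at least 9.45-fold lower against a floor of 3 counts over the group. Under PCN, Slit2 was at least 60.6-fold higher in dMye than in FF by the same floor, and under DMSO the log2 fold change was 1.92 (SE 0.38). The FF contrast rests on 30 counts in all, at most 0.647 CPM in a library.

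Slit3 (chromosome 11, 35121224 to 35708507, plus strand), a related secreted ligand, was more abundant and did not pass the test for PCN in either genotype. Its lowest, median and highest values were 6.61, 8.65 and 10.8 CPM in dMye_PCN and 4.64, 9.33 and 10.4 CPM in dMye_DMSO. It stood at 1.55, 2.38 and 2.11 CPM in FF_PCN and at 2.14, 2.38 and 1.96 CPM in FF_DMSO. All dMye libraries lay above all FF libraries, by a log2 of 2.09 under PCN (SE 0.21, edgeR adjusted p = 1.2e-07) and 1.97 under DMSO (SE 0.21, adjusted p = 2.7e-07). The PCN effect was 0.04 in dMye (95% interval -0.24 to 0.32) and -0.08 in FF (95% interval -0.59 to 0.43), with adjusted p = 0.92 and 0.89.

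Robo1 (chromosome 16, 72308306 to 73046095, plus strand), the receptor that both Slits bind, stayed near the floor. It had between 3 and 10 counts in each dMye library under either agent, averaging 0.253 ± 0.137 CPM in dMye_PCN and 0.248 ± 0.0725 CPM in dMye_DMSO. The FF_PCN libraries held 4 counts in all and the FF_DMSO libraries 8, all 8 of them in 1 library. At this depth no difference in Robo1 could be tested.

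Per kilobase of exon, in CPM per kb, the order of the members differed between the groups. In dMye_PCN Epha2 led at 2.61 ± 0.193, followed by Efnb2 at 1.95 ± 0.119, Efnb1 at 1.81 ± 0.0941 and Slit3 at 1.47 ± 0.245. In dMye_DMSO Efnb2 (2 ± 0.189), Epha2 (1.95 ± 0.271) and Efnb1 (1.94 ± 0.27) differed by less than their SDs, and Slit3 stood at 1.42 ± 0.341. In FF_PCN Efnb1 led at 1.46 ± 0.0888, and Epha2 (0.808 ± 0.167) and Efnb2 (0.753 ± 0.0535) did not differ beyond their spread. In FF_DMSO Efnb1 stood at 1.24 ± 0.0863, Efnb2 at 0.666 ± 0.0761, Epha2 at 0.454 ± 0.0339 and Slit3 at 0.357 ± 0.0348. Efna1 and Ephb4 came next in every group, at 0.653 ± 0.128 and 0.531 ± 0.0951 in dMye_DMSO, where they differed by less than the SD of Efna1. Ephb3, Ephb2, Slit2 and Robo1 stood at or below 0.204 in every group. Lengths are those of the union of all annotated exons, which is long for Slit2 (25.4 kb) and lowers its value.

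**Figure D2:**
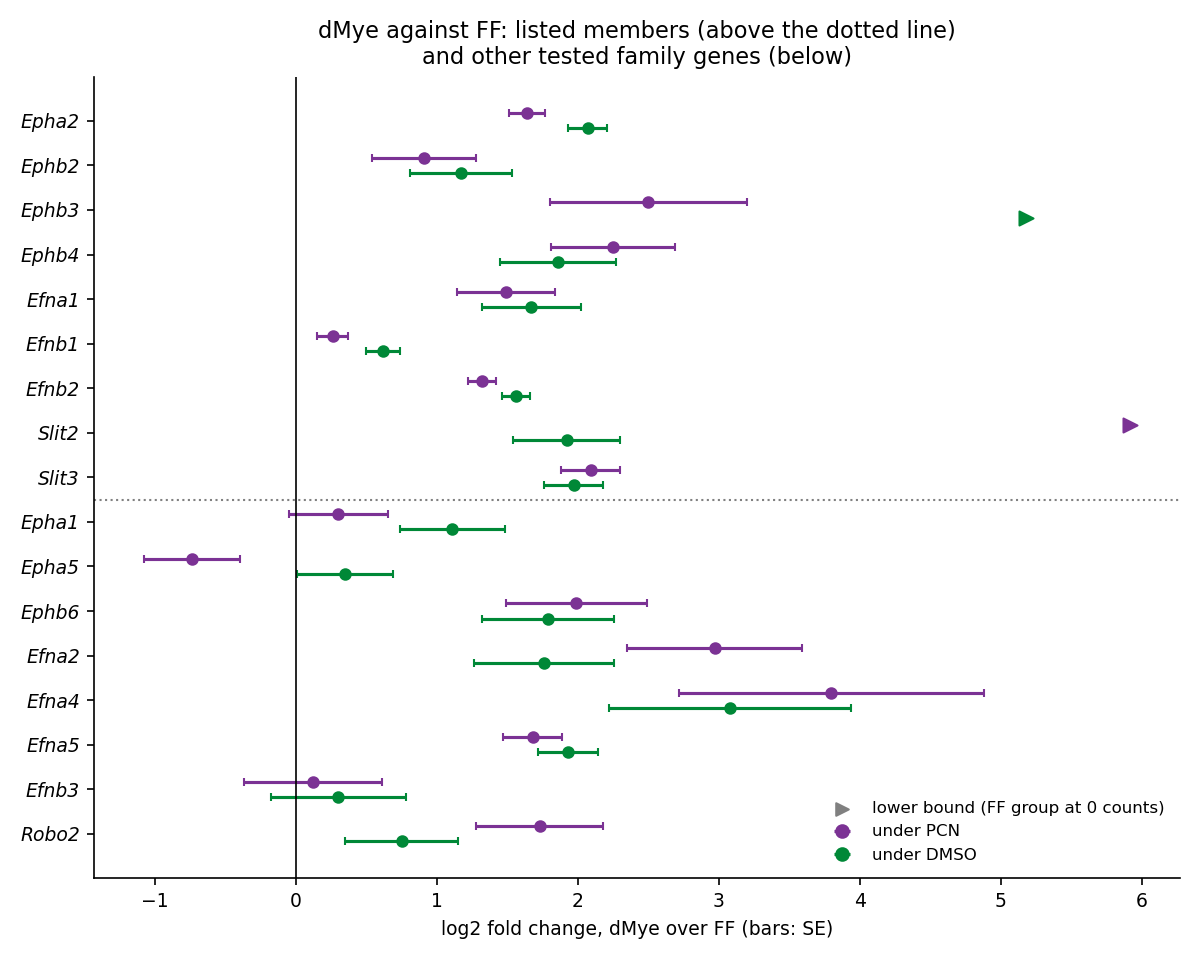
Log2 fold change of dMye over FF (horizontal axis) for 17 tested Eph, ephrin, Slit and Robo genes, with points for estimates, bars for the SE and triangles for lower bounds where an FF group was at 0 counts. The 6 tested members that did not guide the choice lie to the right of 0 under both agents. So did 6775 of all 13409 tested genes under PCN and 7122 under DMSO. Epha2, Ephb3 and Slit2 also lie to the right, but they were chosen by such differences. Of the 9 tested members Efnb1 lies nearest to 0, at 0.26 under PCN and 0.62 under DMSO.

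Between the genotypes, the members that did not guide the choice were higher in dMye. Under PCN, 4 of the 6 tested ones rose in dMye (Efnb2, Slit3, Ephb4 and Efna1), where 16.2% of all 13409 tested genes did. Under DMSO all 6 did, where 13.9% of all genes did. The share of all genes that fell was 11.4% under PCN and 7.85% under DMSO, and 0 of the 6 fell in either. The dMye libraries lay wholly above the FF libraries for 5 of the 6 under PCN (all but Ephb2) and for 6 under DMSO, against 19.1% and 17.3% of all genes. The median log2 value over the 6 was 1.41 under PCN and 1.62 under DMSO, beside 0 and 0.02 over all genes. Both comparisons use different libraries of the same genotypes, and they do not separate genotype from sex.

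Of the other 19 Eph, ephrin, Slit and Robo genes, 8 were tested. Efna2, Efna4, Efnb3 and Robo2 reached the filter's level of 0.39 CPM in fewer than 3 of the 6 FF libraries. They therefore passed through the dMye libraries and are described without a test. Of the other 4, 2 rose in dMye under PCN and 3 under DMSO, and 0 fell. Efna5, an A-class ephrin, averaged 4.74 ± 0.644 CPM in dMye_PCN and 1.43 ± 0.474 CPM in FF_PCN (log2 1.68, SE 0.21, edgeR adjusted p = 2.1e-06). It averaged 4.98 ± 0.547 CPM in dMye_DMSO and 1.28 ± 0.456 CPM in FF_DMSO (log2 1.93, SE 0.21, adjusted p = 3.8e-07). Ephb6, a receptor that lacks kinase activity, rose under PCN (log2 1.99, adjusted p = 0.0045) and under DMSO (1.79, adjusted p = 0.0078), the second call being lost without FF_DMSO 3 (adjusted p = 0.064). Epha1, another A-class receptor, rose under DMSO (1.11, adjusted p = 0.033) and did not pass under PCN (0.30, adjusted p = 0.58), and its interaction did not pass either (-0.82, adjusted p = 0.54). The Epha1 call was lost in limma-voom (adjusted p = 0.054), in a fit of only the DMSO groups (adjusted p = 0.074), and without FF_DMSO 1, FF_DMSO 3, dMye_DMSO 2 or dMye_DMSO 6 (adjusted p from 0.06 to 0.18). Epha5 did not pass under PCN (-0.74, adjusted p = 0.11) or DMSO (0.35, adjusted p = 0.50), but without FF_PCN 1 it was called lower in dMye under PCN (-1.02, adjusted p = 0.046). Efna2 averaged 0.678 CPM in dMye_PCN and 0.787 CPM in dMye_DMSO, against 0.0804 CPM in FF_PCN and 0.223 CPM in FF_DMSO, with at most 10 counts in an FF library. Efna4 averaged 0.256 CPM in dMye_PCN and 0.365 CPM in dMye_DMSO, against 1 count in all in FF_PCN and 3 counts in all in FF_DMSO. Robo2, the other main Slit receptor, averaged 0.788 CPM in dMye_PCN and 0.791 CPM in dMye_DMSO, against 0.228 CPM in FF_PCN and 0.457 CPM in FF_DMSO. Efnb3, the remaining B-class ephrin, averaged 0.312 CPM in dMye_PCN and 0.332 CPM in dMye_DMSO, against 0.276 CPM in FF_PCN and 0.263 CPM in FF_DMSO. The receptors Epha3, Epha4, Epha6, Epha7, Epha8, Epha10, Ephb1, Robo3 and Robo4 and the ligands Efna3 and Slit1 had at most 17 counts in a library and were not tested.

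**Figure D3:**
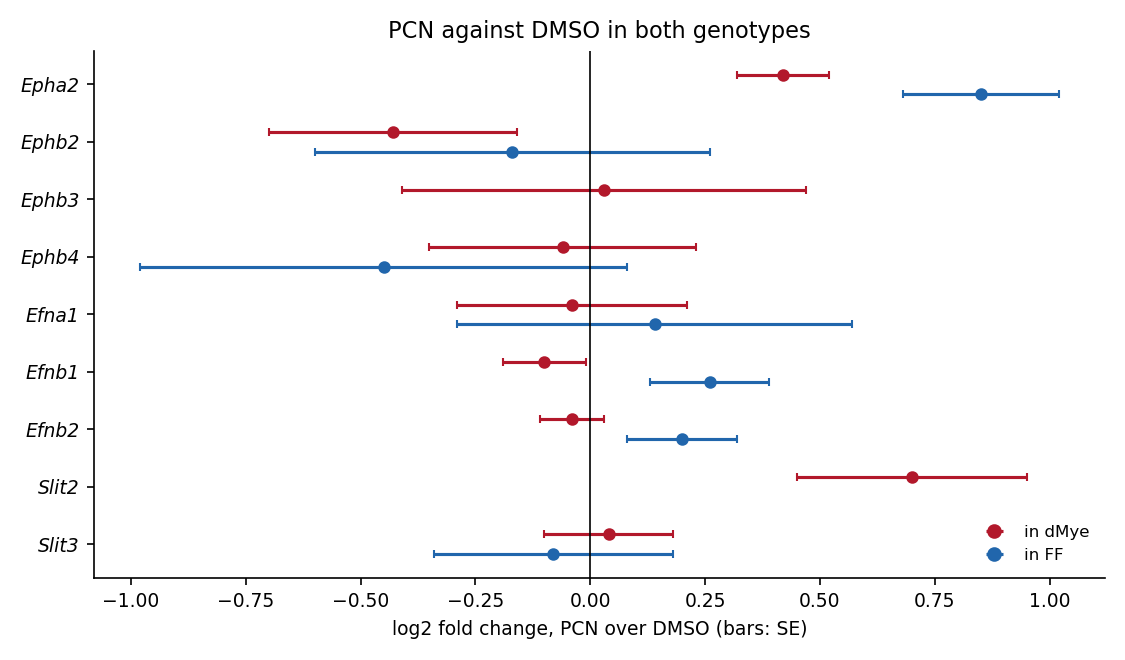
Log2 fold change of PCN over DMSO (horizontal axis) in dMye and in FF for the 9 tested members, with points for estimates and bars for the SE. Epha2 lies to the right of 0 in both genotypes (0.42 in dMye and 0.85 in FF), and Ephb3 and Slit2 have no FF point because an FF group was at 0 counts.

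With PCN, the members that did not guide the choice passed the test in neither genotype. In dMye 0 of the 6 passed, where 2.08% of all tested genes did, and in FF 0 of the 6, where 13.8% did. The difference between the PCN effects passed for 0 of the 6, where 1.42% of all genes did. At an unadjusted edgeR p under 0.05, there were 0 of 6 in dMye, 0 in FF and 1 for the difference (Efnb1), and DESeq2 and limma-voom called 0 in each. The 8 other tested family genes were not called in these 3 contrasts by any of the 3 tools. At an unadjusted edgeR p under 0.05 there was only Epha5, in dMye (-0.70) and in the difference (-1.09). The share of all genes at an unadjusted p under 0.05 was not taken, so counts at that level, here and below, are a description. Efnb1 was the single one of the 6 members whose FF_PCN libraries all lay above the FF_DMSO libraries, where 15.3% of all genes did so and 18.2% lay below. In dMye 0 of the 6 lay wholly above, where 1.03% of all genes did.

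Genes known to carry these signals inside the cell were described as lists. The median log2 value of the 24 tested genes of Eph and ephrin signalling was 0.00 for PCN in dMye and 0.01 in FF, and 0.01 and 0.03 for dMye over FF under PCN and DMSO. Of these 24, PCN changed 0 in dMye, by edgeR, DESeq2 or limma-voom and at an unadjusted p under 0.05, where 0.94% of all genes rose and 1.14% fell. In FF 0 rose and 2 fell, where 6.82% of all genes rose and 6.98% fell. These were Rgs3, a regulator of G protein signalling that binds B-class ephrins (log2 -0.59, SE 0.13, edgeR adjusted p = 0.0029), and Tiam1, an activator of Rac (-0.70, SE 0.15, adjusted p = 0.0033). Tiam1 stood at 9.84 ± 1.55 CPM in dMye_PCN and 8.79 ± 1.43 CPM in dMye_DMSO, and at 6 ± 0.411 CPM in FF_PCN and 9.94 ± 0.952 CPM in FF_DMSO, and the difference between its PCN effects passed the test (0.86, SE 0.19, adjusted p = 0.023). That call was lost without any of 5 FF libraries, all but FF_DMSO 2 (highest adjusted p = 0.095). Between genotypes, 5 of the 24 rose (20.8%) and 1 fell (4.17%) in dMye under PCN, where 16.2% of all genes rose and 11.4% fell. Under DMSO 3 rose and 3 fell (12.5% each), where 13.9% of all genes rose and 7.85% fell. The rises were thus near the share of all genes. The kinases Src (log2 1.06 under PCN and 1.17 under DMSO, adjusted p = 7.6e-05 and 2.7e-05) and Yes1 (1.20 and 1.52, adjusted p = 4e-04 and 4.4e-05) rose, and Vav3, a guanine nucleotide exchange factor, fell (-0.47 and -0.43, adjusted p = 2.8e-07 and 1e-06).

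Of 20 tested genes of Slit and Robo signalling, PCN lowered 1 and raised 0 in dMye, and lowered 5 and raised 1 in FF. The 5 that fell in FF were 25% of the list, where 6.98% of all genes fell, and the 1 in dMye was 5%, where 1.14% did. Their median log2 value was -0.02 in dMye and -0.09 in FF, beside -0.01 and 0.01 over all genes. Evl, an actin regulator of the Ena/VASP family, fell in both. It stood at 39.9 ± 1.85 CPM in dMye_PCN and 49.9 ± 2.78 CPM in dMye_DMSO (log2 -0.33, SE 0.05, edgeR adjusted p = 0.00076), and at 38.2 ± 0.903 CPM in FF_PCN and 65 ± 1.78 CPM in FF_DMSO (-0.75, SE 0.07, adjusted p = 2.7e-07). The fall was smaller in dMye (difference 0.42, SE 0.08, adjusted p = 0.017). In FF the Rac activator Dock1 (-0.50, adjusted p = 0.0075) and the kinase Pak1 (-0.47, adjusted p = 0.014) also fell, Dock1 not without FF_PCN 2 (adjusted p = 0.054) and Pak1 not without FF_DMSO 2 or FF_PCN 2 (highest adjusted p = 0.081), and Gpc1, a heparan sulfate proteoglycan that binds Slit, rose (0.34, adjusted p = 0.015; chosen after its value was seen). Between genotypes 4 of the 20 rose and 5 fell in dMye under PCN, and 4 rose and 9 fell under DMSO (medians 0.00 and -0.11). The genes that fell were 25% of the list under PCN, where 11.4% of all genes fell, and 45% under DMSO, where 7.85% did. The proteoglycans Sdc1 (-0.89 under PCN and -0.82 under DMSO, adjusted p = 8.2e-08 and 2.8e-07) and Gpc1 (-0.60 and -0.35, adjusted p = 3.4e-06 and 0.0022) fell.

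Semaphorins and netrins are other guidance cues. PCN changed 2.08% of all tested genes in dMye and 13.8% in FF. Of 27 tested semaphorin and plexin genes, PCN changed 0 in dMye (edgeR; 1 at an unadjusted p under 0.05, and 0 by DESeq2 and limma-voom) and 1 in FF, the semaphorin gene Sema4d, which fell (-0.25, edgeR adjusted p = 0.019; lost without any of 5 FF libraries, highest adjusted p = 0.078). Between genotypes, 12 rose and 1 fell in dMye under PCN, and 10 rose and 3 fell under DMSO (medians 0.99 and 0.86), where 16.2% of all genes rose and 11.4% fell under PCN, and 13.9% rose and 7.85% fell under DMSO. Sema3a, a secreted semaphorin, averaged 9.35 ± 1.26 CPM in dMye_PCN and 1.38 ± 0.238 CPM in FF_PCN (log2 2.70, adjusted p = 1.9e-11), and 8.45 ± 1.03 CPM in dMye_DMSO and 1.59 ± 0.173 CPM in FF_DMSO (2.37, adjusted p = 1.2e-10). Of 9 tested netrin and netrin receptor genes, PCN changed 0 in dMye (0 also at an unadjusted p under 0.05, and by DESeq2 and limma-voom) and 1 in FF, the ligand gene Ntn1, which rose (5.61 ± 0.771 CPM in FF_PCN and 3.04 ± 0.572 CPM in FF_DMSO, log2 0.91, adjusted p = 0.005). In dMye 4 of the 9 were higher under PCN and 6 under DMSO, with 0 lower (medians -0.07 and 0.80). Among them the receptor genes Neo1 (0.80 and 0.92, adjusted p = 5.4e-06 and 9.6e-07) and Unc5b (1.19 and 1.05, adjusted p = 2e-05 and 9.5e-05) rose under both agents.

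**Figure D4:**
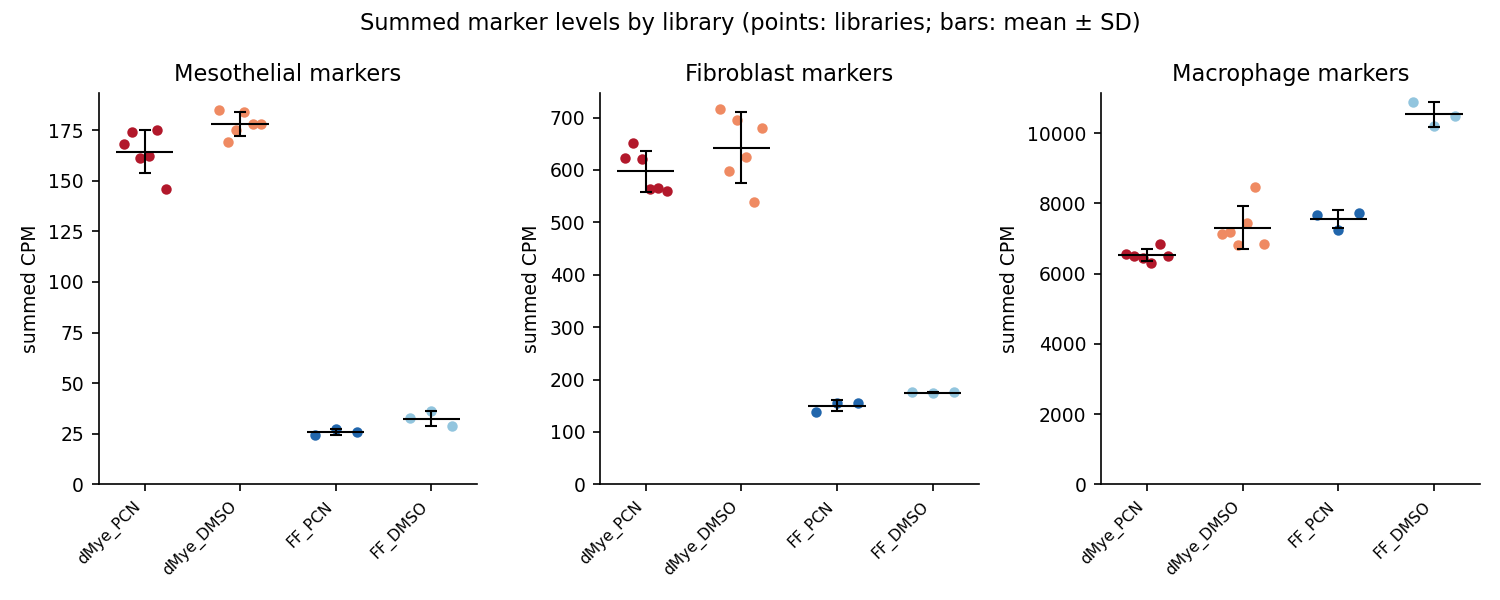
Summed CPM (vertical axes, from 0) of 10 mesothelial, 10 fibroblast and 10 macrophage markers in every library of the 4 groups, with points for libraries and bars for the mean ± SD. The mesothelial sum lies between 146 and 185 CPM in the dMye libraries and between 24.2 and 36.2 CPM in the FF libraries.

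Markers of mesothelium and most tested markers of fibroblasts moved with genotype as the members did. Of all tested genes, 16.2% rose and 11.4% fell in dMye under PCN, and 13.9% rose and 7.85% fell under DMSO. All 10 markers of mesothelium, the lining of the cavity, were higher in dMye under both agents (median log2 2.55 under PCN and 2.37 under DMSO), none of them at 0 in any group. Their summed level was 146 to 175 CPM in dMye_PCN and 169 to 185 CPM in dMye_DMSO, against 24.2 to 27.5 CPM in FF_PCN and 28.6 to 36.2 CPM in FF_DMSO. Of the 9 tested fibroblast markers, 6 were higher in dMye under both agents, and 1, Thy1, was lower under DMSO. Among the 6, Lum averaged 0.172 CPM in FF_PCN and 0.384 CPM in FF_DMSO, under the filter's level of 0.39 CPM. It averaged 4.28 CPM in dMye_PCN and 5.2 CPM in dMye_DMSO, so this count is a description. The sum of the 10 fibroblast markers was 560 to 651 CPM in dMye_PCN and 539 to 717 CPM in dMye_DMSO, against 139 to 156 CPM in FF_PCN and 174 to 176 CPM in FF_DMSO. Of 10 endothelial markers 4 were tested, 1 (Kdr) was higher in dMye under both agents, and Cldn5 was at 0 in all groups. The median log2 value of the 4 was -0.74 under PCN and -0.20 under DMSO, with only 1 of them positive under each agent. Of the 10 macrophage markers, 7 were higher and 1 lower in dMye under PCN, and 3 were higher and 2 lower under DMSO. They summed to 6310 to 6850 CPM in dMye_PCN and 6810 to 8460 CPM in dMye_DMSO, against 7250 to 7740 CPM in FF_PCN and 10200 to 10900 CPM in FF_DMSO. Markers of the labelled cell type were thus present throughout. The differences in this sum are mostly those of Lyz2. It averaged 3270 CPM in dMye_PCN and 4060 CPM in dMye_DMSO, against 4390 CPM in FF_PCN and 7140 CPM in FF_DMSO. Of the 10 B cell markers, 3 were lower in dMye under PCN and 7 under DMSO, with sums of 87 to 97 CPM in dMye_PCN and 82.2 to 97.6 CPM in dMye_DMSO, against 96.8 to 108 CPM in FF_PCN and 111 to 122 CPM in FF_DMSO. Pax5, which was called under both agents, averaged 0.329 CPM in dMye_PCN and 0.3 CPM in dMye_DMSO, under the filter's level. These counts are therefore a description too. Most of each B cell sum was Cd22, which was not among those called. It averaged 84.5 CPM in dMye_PCN and 82.5 CPM in dMye_DMSO, against 87.9 CPM in FF_PCN and 90.2 CPM in FF_DMSO. The part of these markers in the members' differences was not tested, and in bulk RNA more cells of a type and more RNA per cell cannot be told apart.

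Set against the mesothelial sum, most members stood in the other order between the genotypes by their means. The sum had medians of 165 CPM in dMye_PCN and 178 CPM in dMye_DMSO, against 25.9 CPM in FF_PCN and 32.6 CPM in FF_DMSO. A gene that rose less than this sum, or did not change, must come out lower in dMye on this scale. The order is therefore a description that tests nothing, and its share over all genes was not taken. Epha2, Ephb2, Ephb4, Efna1, Efnb1, Efnb2, Slit3 and Robo1 were lower in dMye under both agents, with a wide spread in FF for Ephb4 and Robo1. Ephb3 under DMSO and Slit2 under PCN were higher in dMye, each against an FF group at 0. Slit2 was lower in dMye under DMSO, and so was Ephb3 under PCN, where FF_PCN ran from 0 to 2.55. Per 100 CPM of that sum, Efnb1 stood at 3.82 ± 0.327 in dMye_PCN and 3.77 ± 0.531 in dMye_DMSO, against 19.5 ± 0.501 in FF_PCN and 13.3 ± 2.36 in FF_DMSO. Efnb2 stood at 8.17 ± 0.713 in dMye_PCN and 7.72 ± 0.755 in dMye_DMSO, against 20 ± 0.158 in FF_PCN and 14.3 ± 3.29 in FF_DMSO. Both were thus lower in dMye on this scale and higher in CPM. Slit3 stood at 5.43 ± 0.882 in dMye_PCN and 4.86 ± 1.17 in dMye_DMSO, against 7.73 ± 1.16 in FF_PCN and 6.67 ± 0.169 in FF_DMSO. Epha2 stood at 7.44 ± 0.401 in dMye_PCN and 5.12 ± 0.68 in dMye_DMSO, and at 14.5 ± 2.18 in FF_PCN and 6.59 ± 0.912 in FF_DMSO. On this scale its lowest PCN library lay above its highest DMSO library, at 6.74 against 5.84 in dMye and 12.9 against 7.63 in FF. Epha2 was chosen by such differences, so these values are a description. The sum itself was lower with PCN in FF, at 24.2 to 27.5 CPM against 28.6 to 36.2 CPM, which raises the FF_PCN ratios. With PCN, 0 of the 10 mesothelial markers passed the test in dMye (median log2 -0.10). In FF 1 did, Wt1, which fell (log2 -0.65, edgeR adjusted p = 0.0035). The median log2 value of the 10 in FF was -0.38, with 1 of them positive. Of the 10 macrophage markers, 1 fell with PCN in dMye and 7 fell in FF, where 1.14% and 6.98% of all tested genes fell.

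Some genes followed the profile of a chosen member closely over the 18 libraries. Likeness was measured as the root mean square difference of the centred log2 CPM values. Nearest to Epha2, whose own SD over the libraries was 0.952, were Ptx3, a secreted pattern recognition protein (0.239), Ctgf, a matricellular protein (0.241), the adhesion receptor gene Cxadr (0.257), Lox, which cross-links collagen (0.275), and Lrrn4cl (0.279). Ctgf averaged 16.5 CPM in dMye_PCN and 12.6 CPM in dMye_DMSO, against 5.59 CPM in FF_PCN and 2.76 CPM in FF_DMSO. In FF_PCN and FF_DMSO, Ptx3 averaged 3.16 and 1.82 CPM and Lrrn4cl 2.36 and 1.77 CPM. Cxadr (6.59 and 6.01 CPM) and Lox (8.99 and 8.67 CPM) differed little between these groups. A small distance thus need not mean a shared difference with PCN. Nearest to Ephb3 (SD 1.875) were Col24a1, Fgf16, Krt7, Crispld2 and Mgp, at 0.735 to 0.806, and nearest to Slit2 (SD 1.857) were Gucy1a3, Gipc2, Aqp1, Shroom2 and Cdh3, at 0.638 to 0.772. Both members had libraries at 0.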

How the data were processed

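RNA-seq was analysed in 18 libraries, placed in 4 groups by the genotype and agent labels. A further allele that all groups share is not reported here. The authors deposited expected counts per gene, estimates that need not be whole (51.2% were not), and these were rounded. The build, mm10, is named in the submitters' processing notes. Which aligner, quantifier and annotation made the counts, and whether strand was used, is not given in the sources used here, so reads of antisense or near-identical genes could be split between them. Coordinates come from GENCODE M21 and promoter sequences from RefSeq, both on GRCm38 (the assembly behind mm10), matched by symbol for 10 of 10 members.

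After filterByExpr, 13409 genes entered a robust quasi-likelihood fit in edgeR 4.0.16 (R 4.3.3) with TMM scaling, with a mean for each of the 4 groups and all 18 libraries. Contrasts were PCN against DMSO in each genotype, the difference of these effects (the interaction), and dMye against FF under each agent. "Rose" and "fell" refer to adjusted p-values under 0.05 (Benjamini-Hochberg, over all tested genes). SEs were derived from the F statistics. CPM values use unscaled totals, and means are ± SD with n = 6 in each dMye group and 3 in each FF group. Replicate numbers only name libraries.

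The members and the gene lists were chosen with earlier results of these data known. The 10 members are always named, and from each other list up to 3 called genes per contrast by smallest p (4 among the related family genes). Epha1, Epha5, Thy1 and the PCN result of Gpc1 fall outside this rule and were named after their values were seen. Genes most like a chosen member are the 5 nearest in centred log2 CPM, without gene models. Each result was recomputed with other scalings (RLE, upper quartile), without the filter or at 1 CPM in 6 libraries, by DESeq2 1.42.0 and by limma-voom (limma 3.58.1), from the compared groups alone, and with each library left out. The fit was also tested on simulated data.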

Additional observations from a re-analysis of the deposited data

Results flagged for a closer look

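Slit3 in dMye_DMSO 5 stood apart from its group, at 4.64 CPM where the next library was at 8.36 CPM. Its gap was 0.646 of the group's range, above Dixon's critical value for 6 libraries. Of 20 groups looked at, 1 stood apart, and chance alone marks about 5%. Without this library the log2 fold change of Slit3 between the genotypes remained past the threshold, and its PCN value in dMye was -0.07.

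The PCN effect differed between the genotypes by the interaction test for the Rac activator gene Tiam1 (dMye minus FF, log2 0.86) and for the actin regulator gene Evl (0.42). Over the alternatives the edgeR, DESeq2 and limma-voom adjusted p ran from 0.0021 to 0.095 for Tiam1 and from 0.00013 to 0.04 for Evl.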

How the results depend on the processing

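Counts are of genes called at an adjusted p under 0.05, and those over the 29 Eph, ephrin, Slit and Robo genes, of which 17 were tested, include Epha2, Ephb3 and Slit2. Those for PCN and for the interaction came from these 3 genes, which were picked from the same contrasts, so they test nothing. Among the 29, PCN in FF gave 2, but 1 in a fit of only the FF groups. PCN in dMye gave 1, and 0 to 1 with 1 library left out (0 without dMye_PCN 3, dMye_PCN 4 or dMye_DMSO 2). The interaction gave 1, and 2 in DESeq2. For dMye against FF under DMSO it was 14, and 9 to 14 with 1 library left out (9 without FF_DMSO 3), and under PCN 12, and 10 to 13. These genotype counts are a description only. Besides the 3 chosen genes they include Efna2 and Efna4, and under PCN Robo2, which passed the filter through the dMye libraries. All the calls were higher in dMye, where 13.9% of all tested genes were under DMSO and 16.2% under PCN. Over all genes, PCN in FF gave 1851, and 1201 to 2175 with 1 library left out (1201 without FF_DMSO 1). PCN in dMye gave 279, 590 in DESeq2, 144 with only the dMye groups, and 137 to 371 with 1 library left out (137 without dMye_PCN 3, and over 1.5 times fewer also without dMye_PCN 4, dMye_PCN 6 or dMye_DMSO 2). The interaction gave 190, 407 in DESeq2, and 42 to 261 with 1 library left out (42 without FF_DMSO 1, and over 1.5 times fewer also without any other FF library, dMye_PCN 1, dMye_PCN 2 or dMye_DMSO 2). For dMye against FF over all genes, the left-out range was 2625 to 4151 under PCN (3702) and 2056 to 3313 under DMSO (2921). Causes were not tested.

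Of the log2 values of the 6 tested members that did not guide the choice, 724 kept their direction and side of the threshold over the alternatives, 2 gained a call, 1 lost it and 17 turned sign. All 17 were uncalled values with 1 library left out. With 1 library left out, the ranges for PCN in FF were -0.64 to 0.10 for Ephb2, -0.87 to 0.11 for Ephb4, -0.08 to 0.46 for Efna1 and -0.23 to 0.07 for Slit3. For PCN in dMye they were -0.14 to 0.07 for Efna1 and -0.07 to 0.11 for Slit3. For the interaction they were -0.54 to 0.21 for Ephb2, -0.17 to 0.81 for Ephb4, -0.49 to 0.04 for Efna1 and -0.02 to 0.27 for Slit3. Limma-voom lay outside these ranges for Ephb4, at -1.43 for PCN in FF and 1.36 for the interaction. Of the values of Epha2, Ephb3 and Slit2, 19 moved by more than the spread between libraries. Ephb3 for PCN in dMye (0.03) was negative in 7 alternatives, limma-voom and 6 with 1 library left out, at -0.10 to -0.01.

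Upper-quartile scaling moved the share of higher calls to 31.2%, from 45.2%, for PCN in dMye, to 38.2%, from 49.4%, for PCN in FF, to 74.8%, from 58.8%, for dMye against FF under PCN, and to 76%, from 64%, under DMSO. The median of all genes moved by no more than 0.06 under either scaling. No paired analysis was possible because the labels give no replicate numbers that groups share. Members under about 1 CPM rest on few counts in FF, and Robo1 could not be tested.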
